A study of Mus musculus with 4 samples.

Results

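Of 9 genes that carry out or restrain apoptosis and necroptosis, 1 passed the test between livers with and without TAK1 in hepatocytes (11.1%, against 18.2% of all genes): Mlkl, which encodes the protein that breaks the cell membrane in necroptosis, was higher in the TAK1 KO livers. The 9 genes were chosen by symbol from the array platform's annotation, out of 16593 genes with a probe, and were Casp8, Cflar, Bid, Bak1, Bcl2l11, Bcl2l1, Mcl1, Ripk3 and Mlkl. Each was read on the probe with the highest mean over the 4 arrays. RNA from whole liver of untreated male C57BL/6 mice, 4 weeks old, was hybridised to Illumina expression arrays, 1 array per sample. The 2 WT samples carried a floxed TAK1 gene and no Cre, and the 2 TAK1 KO samples carried the same floxed gene with Cre driven by the albumin promoter (Alb-Cre), which is active in hepatocytes, so that Cre and the deletion differ together between the groups. Whole liver also holds cells in which this promoter is not active, and fewer cells of a type and less RNA per cell cannot be told apart in such samples.

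Apoptosis can begin at death receptors such as the TNF receptor and Fas, where the adaptor FADD gathers caspase-8, and FLIP, a relative of caspase-8 encoded by Cflar, holds caspase-8 in check. In hepatocytes active caspase-8 cuts BID, and cut BID makes BAK and BAX open the outer mitochondrial membrane, a step that BCL-XL (Bcl2l1) and MCL1 block and BIM (Bcl2l11) favours. When caspase-8 is inactive, the kinase RIPK1 can instead engage RIPK3, which phosphorylates MLKL, and MLKL then lyses the cell. TAK1, encoded by Map3k7, stands upstream of these branches, since it activates NF-kB and JNK after TNF binds its receptor and restrains RIPK1.

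The targeted gene, Map3k7, read 155 and 138.4 units on the WT arrays and 125.3 and 117.9 units on the TAK1 KO arrays. Both TAK1 KO values lay below both WT values, and the change of -0.26 ± 0.10 on the log2 scale (SE, n = 2 per group) did not pass the test (limma's adjusted p = 0.116). Because the position of this probe in the transcript is unknown here, its values cannot serve as a check of the genotypes. Array medians were 81.5 to 81.9 units, and between 40.6% and 40.9% of probes exceeded 100 units, below which values are treated here as too dim for a fold. Among hepatocyte markers the carriers Ttr and Apoa1 read 29575.7 to 43996.7 units over the 4 arrays, whereas the probe for Alb read 190.5 to 214.4 units.

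The sequence before the annotated start is shown for Mlkl, the gene that rose, and for Ripk3, whose kinase acts directly on the MLKL protein. Each run gives the 250 bases upstream of the start, 5′ to 3′ on the gene's strand, from RefSeq on GRCm38.p6, and capitals mark each CpG, the dinucleotide at which mammalian DNA is methylated. The Mlkl window is chr8:111338206-111338455 and the Ripk3 window is chr14:55788858-55789107, both on the minus strand. Another annotated Mlkl transcript begins farther upstream, so the Mlkl window lies within the span of the gene.
Mlkl: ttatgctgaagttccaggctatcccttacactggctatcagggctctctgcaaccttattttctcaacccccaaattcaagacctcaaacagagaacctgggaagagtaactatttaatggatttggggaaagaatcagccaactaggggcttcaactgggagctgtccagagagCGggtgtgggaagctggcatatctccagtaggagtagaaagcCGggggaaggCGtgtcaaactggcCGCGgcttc
Ripk3: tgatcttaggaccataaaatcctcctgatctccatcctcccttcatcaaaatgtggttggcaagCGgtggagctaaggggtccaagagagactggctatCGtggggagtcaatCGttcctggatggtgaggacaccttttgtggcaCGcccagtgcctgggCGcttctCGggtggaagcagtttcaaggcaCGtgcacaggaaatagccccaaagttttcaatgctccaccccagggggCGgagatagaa

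Mlkl had 5 CpGs in this window and Ripk3 had 8, against a median of 6 over 32851 such windows. The 9 genes matched 12 windows, which held from 0 CpGs, at 1 of the 3 starts of Bcl2l1, to 30 at 1 of the 2 starts of Bcl2l11, and the Mcl1 window held 26. Each window was searched on both strands for 4 motifs, and matches of different motifs could overlap. The AP-1 motif TGANTCA, the interferon-stimulated response element (GAAA, any 2 bases, GAAA) and the GAS motif TTCNNNGAA, each in these letters, were found in 0 of the 12 windows, and in 6.75%, 2.98% and 7.02% of all windows. The kappaB consensus was found in 1 of the 12, a Bcl2l1 window with GGGGGTCTCC starting 242 bases before the start, and in 7.25% of all windows. A match describes letters only, and its absence says nothing about a factor. Cflar and Casp8 lie next to each other on chromosome 1 in this annotation, with 1 non-coding gene, Gm39646, between them.

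Among the starters of apoptosis, caspase-8 (Casp8) read 374.9 and 342.1 units on the WT arrays and 383.6 and 359.7 units on the TAK1 KO arrays. The groups overlapped, and the log2 difference was 0.05 with a 95% interval from -0.17 to 0.27 (limma's adjusted p = 0.825). A second Casp8 probe, annotated to another transcript, read 213.6 and 211.1 units on the WT arrays and 253.9 and 246.8 units on the TAK1 KO arrays. On that probe both TAK1 KO arrays lay above both WT arrays, at a log2 difference of 0.23 with an interval from 0.03 to 0.43, which did not pass (adjusted p = 0.130 over all probes). Both Cflar probes were dim: the brighter read 53.8 and 50.9 units on the WT arrays and 58.1 and 51 units on the TAK1 KO arrays, and the other read 47.8 to 49.3 units on the 4 arrays. No fold is given for FLIP RNA, which these probes did not measure above 100 units in either group.

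Bid, which carries the caspase-8 signal to mitochondria, read 129.3 and 129.1 units on the WT arrays and 117.4 and 131.9 units on the TAK1 KO arrays. The WT values lay between the TAK1 KO values, and the log2 difference of -0.05 had an interval from -0.27 to 0.17 (adjusted p = 0.820). Its second probe read 71.4 to 91.4 units, below 100 on every array. Bak1, one of the proteins that form the mitochondrial pore, also stayed below 100 units, at 83.2 and 75.4 in WT and 85.5 and 75.2 in TAK1 KO, with overlapping groups. Bcl2l11, whose product BIM binds and disarms the pro-survival proteins, read 113.9 and 102.4 units on the WT arrays and 101.5 and 102.4 units on the TAK1 KO arrays. These values were close to 100 units and overlapped between the groups (log2 difference -0.08, interval -0.30 to 0.14, adjusted p = 0.703), and 2 of the 3 other Bcl2l11 probes were below 100 units on all arrays.

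Of the pro-survival genes, Mcl1 read 2040.3 and 1988.3 units on the WT arrays and 2499.6 and 2301.3 units on the TAK1 KO arrays. MCL1 is a short-lived guard of mitochondria on which hepatocytes depend. Both TAK1 KO values were above both WT values, and the means differed by 0.25 ± 0.09 on the log2 scale (SE, n = 2 per group), with an interval from 0.04 to 0.46, and the difference did not pass the adjustment over all genes (adjusted p = 0.111, unadjusted p = 0.0259). Bcl2l1, which encodes BCL-XL, read 158.8 and 171.8 units on the WT arrays and 168.3 and 170.2 units on the TAK1 KO arrays. The TAK1 KO arrays fell between the WT arrays (log2 difference 0.03, interval -0.18 to 0.24, adjusted p = 0.887). Its other 2 probes read between 83.3 and 111.8 units, and their groups overlapped as well.

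In the necroptosis branch the kinase gene Ripk3 read 111.6 and 113.5 units on the WT arrays and 106.6 and 106.3 units on the TAK1 KO arrays. These values, from the only Ripk3 probe, were close to 100 units. The TAK1 KO arrays were slightly below the WT arrays, and the log2 difference of -0.08, with an interval from -0.28 to 0.12, did not pass (adjusted p = 0.686). Mlkl read 219.3 and 256.2 units on the WT arrays and 380.8 and 552.2 units on the TAK1 KO arrays. Both TAK1 KO arrays were above both WT arrays, although the TAK1 KO arrays differed from each other 1.45-fold. Mlkl rose 1.92-fold, or by 0.94 ± 0.16 on the log2 scale (moderated SE, n = 2 per group, limma's adjusted p = 0.00359). This call was lost without WT replicate 1, where the log2 difference was 0.83 (adjusted p = 0.0616). A second Mlkl probe read 83.5 and 95.5 units on the WT arrays and 102.1 and 124.2 units on the TAK1 KO arrays. It lay in the same order at a log2 difference of 0.32 ± 0.12 (SE), at least 1.12-fold when WT is raised to the 100-unit limit, and did not pass (adjusted p = 0.114 over all probes).

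**Figure D1:**
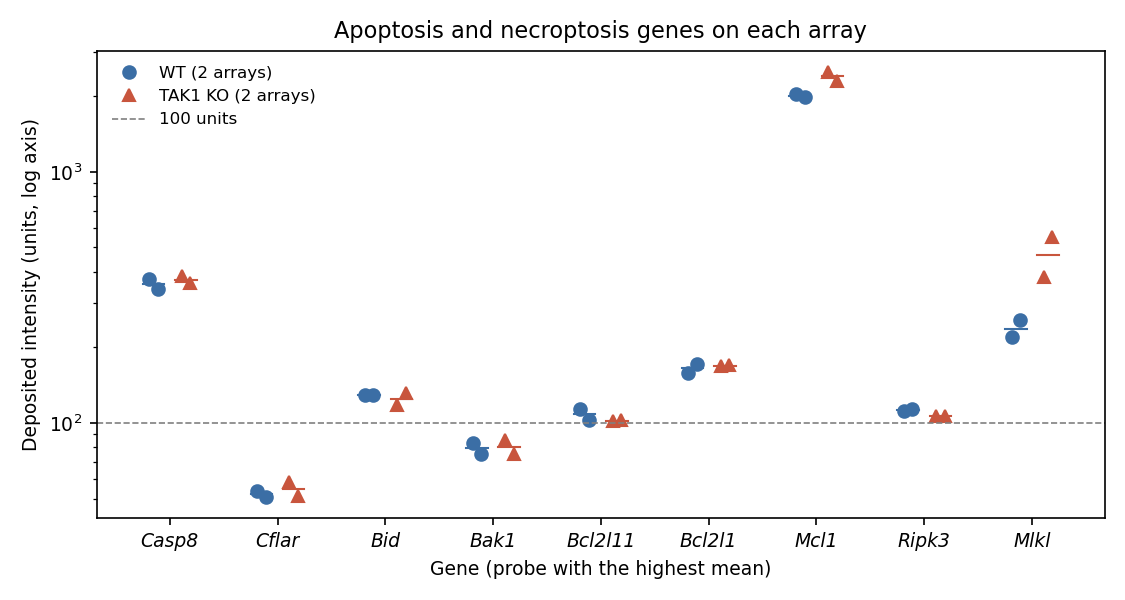
Deposited intensity in units on a log axis for the 9 genes, with WT arrays as circles, TAK1 KO arrays as triangles, their means as short lines and 100 units as a dashed line. Mlkl, at 219.3 and 256.2 units in WT and 380.8 and 552.2 in TAK1 KO, shows the widest gap, and Cflar and Bak1 lie below 100 units on every array.

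Across the 9 genes, 1 rose and 0 fell, that is 11.1%, where 18.2% of all 16593 genes passed limma's test at an adjusted p of 0.05, with 10.5% up and 7.71% down. At an unadjusted p under 0.05 limma gave 2, Mlkl and Mcl1. The share of all genes at that looser threshold was not counted. It cannot be below the 18.2% that passed at the adjusted threshold, so this count is not read as a result. The groups did not overlap in 3 of the 9 (Mcl1, Ripk3 and Mlkl), and in 53.7% of all genes. The 7 genes other than Cflar and Bak1 were above 100 units on all 4 arrays, and 1 of these 7 passed, upward (14.3%), against 36.7% of genes above 100 units on at least 2 arrays (20.8% up and 15.8% down). The groups did not overlap in 3 of the 7, and in 71.7% of genes that bright. The median log2 difference of the 9 was 0.03, and that of all genes was -0.0036. The median size of the difference, whatever its sign, was 0.078 in the 7 genes, and 0.25 in all genes above 100 units on at least 2 arrays. On the probe with the highest mean, the 95% intervals of Casp8, Bid, Bcl2l11, Bcl2l1 and Ripk3 together reached from -0.30 to 0.27, that is from 1.23-fold lower to 1.21-fold higher, and on the second Casp8 probe the interval reached 0.43. These bounds are on a scale that understates changes of dim probes.

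**Figure D2:**
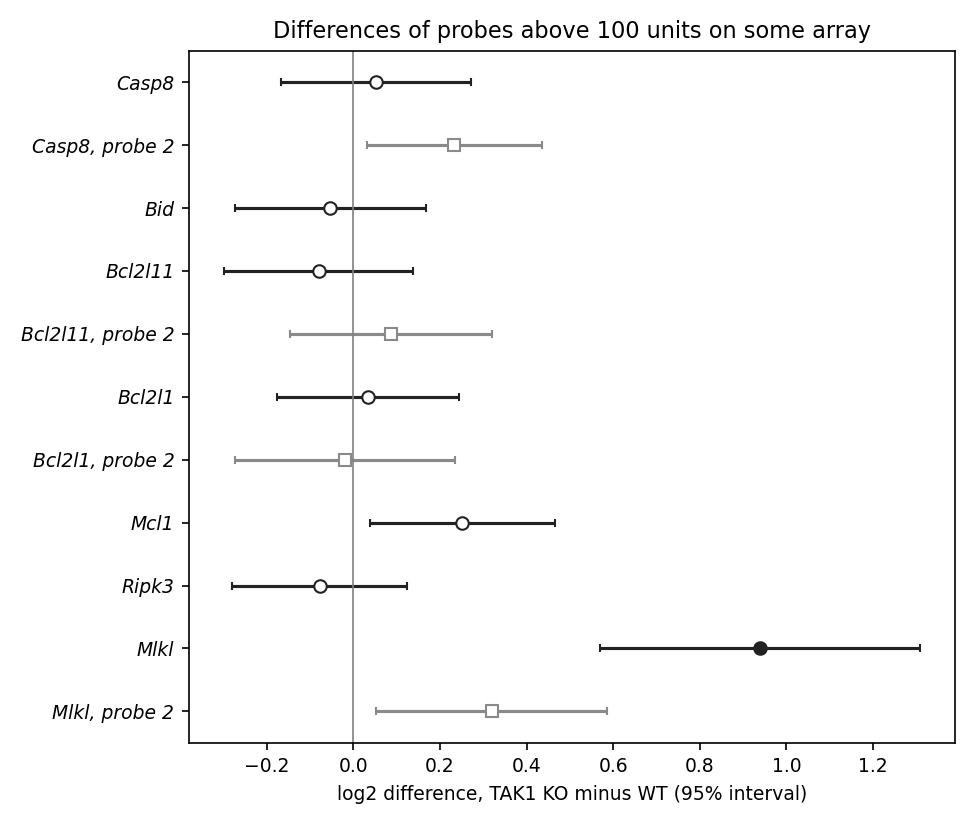
log2 difference between TAK1 KO and WT livers with its 95% interval, for the probe with the highest mean (circles) and for other probes (squares). Only probes above 100 units on at least 1 array are drawn, so Cflar and Bak1 are left out. The filled circle is Mlkl at 0.94, which passed at an adjusted p under 0.05, and the open symbols did not pass.

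Genes of the same pathways were described from 5 lists with 56 entries, of which 47 had a probe and 33 were above 100 units on at least 2 arrays. Of the 47, 7 rose and 3 fell in TAK1 KO livers (21.3%, against 18.2% of all genes), and of the 33, 6 rose and 3 fell (27.3%, against 36.7%). The median log2 difference of the 47 was 0.03. Of the 47, 1 fell without WT replicate 1, 4 rose without WT replicate 2, and 7 fell without TAK1 KO replicate 2. Ripk1, Tradd, Bax, Endog, Gsdme, Bcl2a1a and Bcl2a1b were among the genes not analysed here.

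Of the 14 death receptor and complex genes 1 rose and 1 fell (14.3%, against 18.2% of all genes). Among the 11 above 100 units on at least 2 arrays 18.2% passed, against 36.7% of all genes that bright. Fas, the receptor for Fas ligand, read 595.3 and 592.2 units on the WT arrays and 346 and 371.5 units on the TAK1 KO arrays. It was 1.65-fold lower (log2 -0.72 ± 0.09 SE, adjusted p = 0.000737), a second probe fell by 0.70 on the log2 scale (adjusted p = 0.00150), and the third was below 100 units. Tnfrsf1a, the TNF receptor that signals death, read 164.2 and 157.7 units on the WT arrays and 192.9 and 221.6 units on the TAK1 KO arrays. It rose 1.28-fold (adjusted p = 0.0422), and its other 2 probes rose by 0.48 and 0.50 on the log2 scale (adjusted p = 0.0116 and 0.00472). On the probe used in the counts that call was lost in 7 of the 11 alternative settings, with an adjusted p of up to 0.215. The adaptor gene Fadd, at 391.4 to 471.4 units, did not pass (log2 difference 0.20, adjusted p = 0.195).

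Among the other 4 pro-survival BCL2 genes with a probe, 2 rose and 0 fell (50%, against 18.2% of all genes). Only 2 of the 4 were above 100 units on at least 2 arrays, and 1 of these rose (50%, against 36.7% of all genes that bright). Bcl2, the founding member of the family, read 92.3 and 94.3 units on the WT arrays and 149.5 and 162.8 units on the TAK1 KO arrays and was at least 1.53-fold higher (adjusted p = 0.000839). Of its 7 other probes, all below 100 units, 1 passed upward and 0 downward, and the mean of all 8 probes did not pass (log2 difference 0.21, adjusted p = 0.134). Bcl2a1d was below 100 units on every array, at 62.6 to 93.9, so that its call (adjusted p = 0.0249) carries no fold. The call was lost when WT replicate 1, WT replicate 2 or TAK1 KO replicate 2 was left out (adjusted p = 0.0785 to 0.171), and the gene has near-identical copies that its probe may also read. Bcl2l2, at 253.4 to 346.2 units, did not pass on its brighter probe (log2 difference -0.28, adjusted p = 0.150), while a dimmer one fell by 0.39 on the log2 scale (adjusted p = 0.0182).

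Of the 7 other effector and BH3-only genes 1 rose and 1 fell (28.6%, against 18.2% of all genes). Among the 5 above 100 units on at least 2 arrays 40% passed, against 36.7% of all genes that bright. Bok, a relative of BAK and BAX, read 465.3 and 402.3 units on the WT arrays and 1022.9 and 1072.9 units on the TAK1 KO arrays. It rose 2.41-fold (log2 1.27 ± 0.10 SE, adjusted p = 7.21e-05), and its second probe, at 66.5 and 71 units in WT and 91.4 and 104.8 in TAK1 KO, passed in the same direction (adjusted p = 0.0105). Bbc3, which encodes the p53-induced BH3-only protein PUMA, read 442.9 and 378.3 units on the WT arrays and 261.8 and 293.9 units on the TAK1 KO arrays. It was 1.47-fold lower (adjusted p = 0.00769), but the call was lost without WT replicate 1 (0.0852) and with the mean of its 3 probes (0.138).

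Of the 10 caspase, apoptosome and mitochondrial genes 2 rose and 1 fell (30%, against 18.2% of all genes). Among the 8 above 100 units on at least 2 arrays 37.5% passed, against 36.7% of all genes that bright. Apaf1, the scaffold on which caspase-9 is activated, read 210.6 and 211.1 units on the WT arrays and 368.1 and 465.2 units on the TAK1 KO arrays, a rise of 1.94-fold (log2 0.96 ± 0.12 SE, adjusted p = 0.000631). Its second probe, at 97.1 units on both WT arrays and 113.3 and 112.4 units on the TAK1 KO arrays, did not pass (log2 difference 0.21, adjusted p = 0.179), and the mean of both probes passed at a log2 difference of 0.58 (adjusted p = 0.00368). Casp2 read 357.5 and 400.4 units on the WT arrays and 595 and 556.6 units on the TAK1 KO arrays and rose 1.51-fold (adjusted p = 0.00288). Casp6, an executioner caspase, read 741.6 and 662.6 units on the WT arrays and 516.7 and 506.2 units on the TAK1 KO arrays and was 1.37-fold lower (adjusted p = 0.0111), a call lost without WT replicate 1 (0.103) and with a smaller offset in the background correction (0.0584). On a second Casp6 probe, at 295.7 to 412.3 units, the log2 difference was -0.36 (adjusted p = 0.0349 over all probes). The mean of both Casp6 probes passed at a log2 difference of -0.41 (adjusted p = 0.00961). Casp9 did not pass (log2 difference -0.27, adjusted p = 0.225), and neither did cytochrome c (Cycs), at 551.4 to 589.1 units (adjusted p = 0.923).

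Of the 12 other genes of lytic death 1 rose and 0 fell (8.33%, against 18.2% of all genes). Among the 7 above 100 units on at least 2 arrays 14.3% passed, against 36.7% of all genes that bright. Casp1, the caspase of the inflammasome, read 385.4 and 366 units on the WT arrays and 510.9 and 584.3 units on the TAK1 KO arrays and rose 1.45-fold (adjusted p = 0.00581), a call lost without WT replicate 2 (0.0651). The pore-forming protein gene Gsdmd did not pass (log2 difference 0.01, adjusted p = 0.984), and neither did Zbp1, a sensor that can activate RIPK3, at 148.1 and 134.4 units in WT and 148.6 and 195.2 in TAK1 KO (adjusted p = 0.245).

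**Figure D3:**
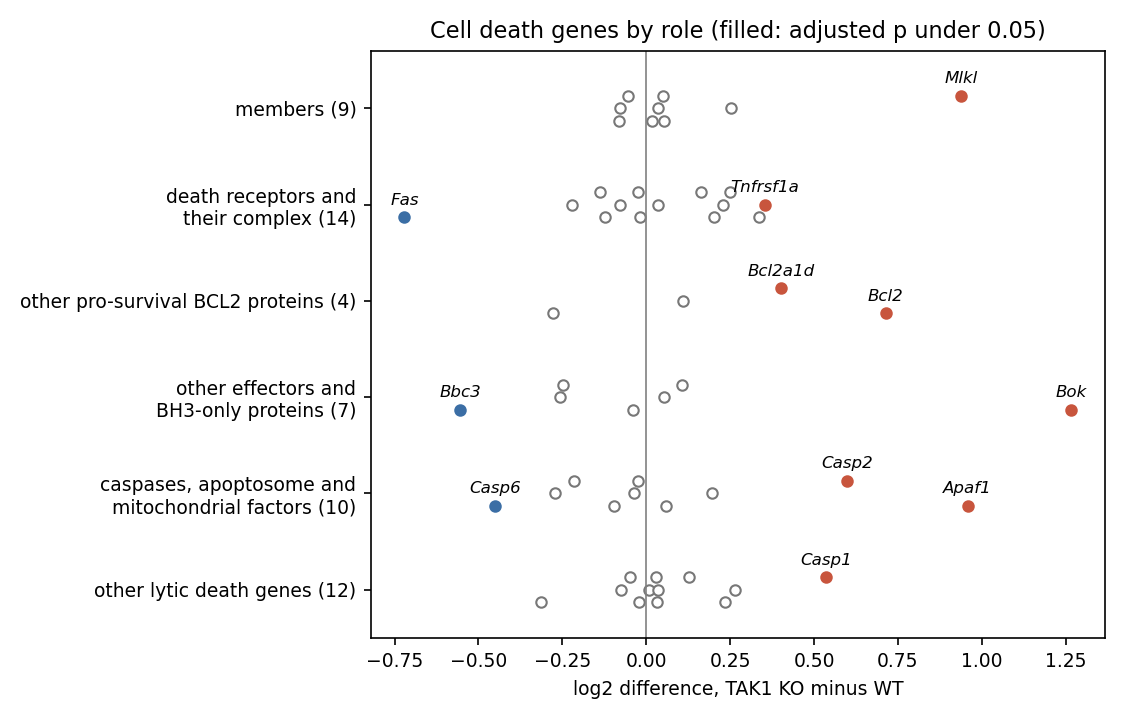
log2 difference between TAK1 KO and WT livers for each gene of the 9 and of 5 related lists, with the number of genes measured in parentheses and small vertical offsets for legibility; dim genes are included. Filled points passed at an adjusted p under 0.05 (red up, blue down), from Fas at -0.72 to Bok at 1.27, and open points did not.

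The genes of these lists whose pattern over the 4 arrays was nearest to that of Mlkl were Apaf1, Bcl2 and Casp1, out of 47. Likeness was measured as the Euclidean distance between log2 values centred on each gene's mean, and the distances were 0.208, 0.392 and 0.513. In all 4 genes both TAK1 KO arrays were above both WT arrays, and TAK1 KO replicate 2 was the highest array. With 4 arrays in 2 groups, any genes that rise by a like amount come out as near.

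**Figure D4:**
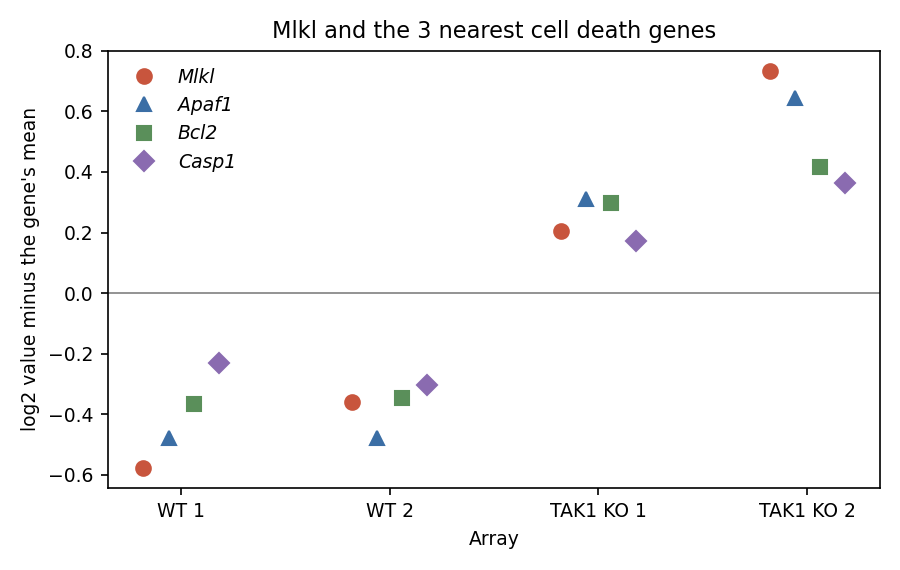
log2 value minus the gene's own mean on each array for Mlkl and the 3 nearest cell death genes. Mlkl runs from -0.58 on WT replicate 1 to 0.73 on TAK1 KO replicate 2, and Apaf1 from -0.48 to 0.65.

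Markers of some other cell types also differed between the groups, where 10.5% of all genes rose and 7.71% fell. Of 9 measured macrophage and monocyte markers 5 rose and 0 fell, and their summed intensity was 5513.1 to 6029.9 units in WT and 11302.9 to 11692.2 units in TAK1 KO, with Cd5l, Itgam and Ccr2 below 100 units throughout. Of 9 stellate cell markers 8 rose and 0 fell, with sums of 9784.7 to 10626.7 units in WT and 20421.4 to 24455.5 units in TAK1 KO. Of 7 neutrophil markers 3 rose (596.2 to 747.7 units in WT, 1229.9 to 1492.4 in TAK1 KO). Only 2 of the 7, S100a8 and S100a9, were above 100 units on at least 2 arrays, and Retnlg passed at 62.5 to 102.4 units. Of 9 lymphocyte markers 0 passed and none read above 102.9 units. Bile duct markers rose in 1 of 4 cases (318.1 to 327.5 units in WT, 351.3 to 409.8 in TAK1 KO). Of 7 sinusoidal endothelial markers 2, Lyve1 and Oit3, fell and 0 rose. Their sums were nonetheless higher in TAK1 KO (7282.2 to 7299 units in WT, 7608.1 to 7640.6 in TAK1 KO). Most of each sum came from Clec4g, at 4884 and 4973.9 units in WT and 5631.2 and 5775.4 in TAK1 KO, which did not pass. Of 8 hepatocyte markers 0 rose and 1, Cyp2e1, fell, and the sums were 153858.8 to 156238.9 units in WT and 142270.1 to 156621 in TAK1 KO. The part of these cell types in the differences of Mlkl and of the other genes was not tested.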

How the data were processed

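The deposited values are linear intensities of each probe, with 1 column per sample, already normalized between arrays by a method not given in the sources used here. It carries no detection p. A table from before normalization has 4 columns that match no sample label, and these were not used. Intensities were background-corrected with limma's normexp (offset 50) and put on the log2 scale. Probes were named through the platform annotation, updated by gene ID to RefSeq GRCm38.p6 symbols (11 IDs did not match): of 25697 probes 23978 had 1 gene, 0 had several and 1719 had none. Where a gene had several probes, the one with the highest mean was used.

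The test was that of limma 3.58.1 (lmFit and eBayes, two-sided, R 4.3.3, 2 residual and 6.85 prior degrees of freedom) and Benjamini-Hochberg adjustment over 16593 genes at 0.05. Other probes were adjusted over all named probes. The procedure was also run on data simulated from limma's own fitted variances, which cannot show whether those variances suit these arrays. Alternatives covered background correction, normalization, a filter on dim genes, probe choice, variance prior, a replicate block and each array left out. With 2 arrays a group, exact permutation gives no p under 0.333, so it was not used. In this test each gene's own spread between arrays (2 residual degrees of freedom) is combined with that of all genes (6.85 prior degrees of freedom). The p-values therefore do not rest on a gene's own spread alone. The labels name no batch and do not say whether samples came from separate animals. Both parts of the spread come from these samples only and may be technical.

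The 9 genes, the related lists and the 100-unit limit were chosen with earlier results of these data known. The text names all 9 genes, in each related list up to 4 genes past the threshold with the largest change, and the 3 genes nearest to the member that changed most; other genes were picked with their values known. Lower bounds ("at least") compare the brighter group's mean log2 value with that of the dimmer group, raised on each array to its lowest value above 100 units.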

Additional observations from a re-analysis of the deposited data

How the results depend on the processing

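With 2 arrays per group, their number limits every value here, and dim probes, under 100 units, limit Cflar, Bak1 and most second probes. In each of 11 alternative settings the counts of the 9 genes were 1 up and 0 down, except without WT replicate 1, where they were 0 and 0. With 1 array left out, the lone array of its group is assumed to vary like the other group. Leaving out 1 array at a time gave 1035 to 1875 genes up and 759 to 1429 down among all genes (1743 and 1279 with all arrays), and 4 to 9 up and 1 to 7 down among the 47 related genes (7 and 3). Without WT replicate 1 the counts over all genes were 1068 and 759, and 1 related gene fell; without WT replicate 2 they were 1035 and 765, and 4 related genes rose; without TAK1 KO replicate 2, 7 related genes fell. The log2 difference of Mlkl ranged from 0.63 to 1.20 and passed in 10 of the 11 settings. The other 8 genes passed in none of the settings in which they were tested, with a lowest adjusted p of 0.0858. Among the 9 genes and the 10 related genes that passed, no call changed direction in these settings, and 18 values of single genes or second probes lost the call that the main value had. With the replicate number as a block the counts were 1758 up and 1309 down over all genes, 1 and 0 among the 9, and 6 and 3 among the 47. The same-numbered arrays' deviations correlated at 0.0453, so the numbers do not pair the samples by this check. The cause of these shifts was not tested.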
